A study of Homo sapiens with 9 samples.

Results

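The kinetochore and centromere genes examined here are 36 genes chosen by name. They encode the centromeric histone and the proteins of the inner centromere network, the complexes of the outer kinetochore, the fibrous corona, the Ska complex and the binding partners of the spindle checkpoint. Each of the 36 symbols matched 1 row among the 58735 genes of the deposited table, and each passed the filter on low counts in all 3 comparisons. The RNA came from KHM-5M, an established human thyroid cancer cell line, after 24 h with the solvent DMSO, with 0.3 μM YK-4-279 or with 1 μM YK-4-279. YK-4-279 is a small molecule inhibitor of transcription factors of the ETS family. There were 3 samples in each of the 3 groups and 9 in all, all from 1 cell line. Both doses were compared with the same DMSO samples.

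The counts summed to 16903251 to 18238884 per sample. Samples of 1 group always differed beyond counting noise (3.39 to 11.8 by chi-square divided by its degrees of freedom), and none looked like a second copy. The thyroid lineage factor PAX8 lay between 21.6 and 27.7 FPKM (fragments scaled by gene length and library size) in all samples, while TG, TSHR and SLC5A5, which define hormone-producing thyroid cells, were at or below 0.0198. Of 5 epithelial markers, KRT8 and KRT18 lay between 125.0 and 204.0 FPKM, KRT19 and EPCAM between 1.56 and 2.86, and CDH1 did not exceed 0.0467. Of 6 fibroblast markers, COL1A1 (32.5 to 56.4), PDGFRB (4.93 to 8.1) and LUM (2.73 to 4.68) were present and COL1A2, COL3A1 and DCN did not exceed 0.0521. Of 7 blood and endothelial markers, PTPRC, CD3E, PECAM1 and HBB did not exceed 0.0453, while VWF lay between 0.205 and 0.423 and CD14 between 0.234 and 1.07.

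Kinetochores are built on centromeres that are marked by nucleosomes with the histone variant CENPA. The inner network of CENP proteins sits on this chromatin throughout the cell cycle and carries the Knl1, Mis12 and Ndc80 complexes, which together bind spindle microtubules in mitosis. The corona adds motors and adaptors for dynein, the Ska complex stabilises the attachment, and checkpoint proteins at unattached kinetochores delay anaphase. Many of these genes are transcribed periodically, so that their mRNA in a bulk sample also follows how many cells are in each phase. Fewer cells in a phase and less RNA per cell cannot be told apart in bulk samples.

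Compared with DMSO, 15 of the 36 genes fell at 1 μM of YK-4-279 and 1, ZW10, rose. A gene was called where the quasi-likelihood test of edgeR gave an adjusted p under 0.05, with the Benjamini-Hochberg correction made across the 15617 genes that entered it. The 15 lower genes were 41.7% of the group, whereas 9.95% of all genes tested were called lower and 7.67% were called higher. Among protein-coding genes whose mean count was at least that of the least abundant member, 9.94% were called lower. The median log2 fold change was -0.24 over the 36 genes and -0.01 over all genes tested, and 31 of the 36 lay below 0. In all, 4 genes, CENPC, CENPK, CENPE and CENPF, were also lowered by over 1.5-fold. These 4 were 11.1% of the group, beside 2.35% of the protein-coding genes tested. The count of 4 was 7 without DMSO replicate 1 and 2 without 1 μM replicate 3 or with DESeq2.

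After scaling for library size, all samples at 1 μM lay below all DMSO samples in 16 of the 36 genes and above them in 1. Over all genes tested the corresponding shares were 16.3% and 21.1%. Of those 16 genes 3, CENPL, CENPQ and MAD2L1, did not pass the test, while CENPE and CENPF passed it with overlapping groups. Relative to the DMSO mean of each gene, the median over the 36 genes was -0.21, -0.21 and -0.22 on the log2 scale in the 3 samples at 1 μM. It was -0.08, -0.05 and -0.12 at 0.3 μM and -0.07, 0.09 and -0.02 in DMSO. All 3 samples at 1 μM thus lay below the other 6. DMSO replicate 2 was the highest DMSO sample in 26 of the 36 genes, whereas it was the highest in 36.1% of 12900 protein-coding genes. Without that sample the median at 1 μM was -0.17 and 14 genes were called lower. At 0.3 μM replicate 2 was the highest in 19 of the 36 genes, against 29.4% of those protein-coding genes. At 1 μM replicate 2 was the highest in 7, against 32.7%.

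Other measures also moved at 1 μM, and their part in the results on the 36 genes was not tested. The share of counts from lincRNA, antisense and sense-intronic genes was 0.673%, 0.727% and 0.679% in DMSO, 0.642%, 0.665% and 0.640% at 0.3 μM, and 0.583%, 0.534% and 0.570% at 1 μM. The samples at 1 μM lay below all others. The summed level of the 6 fibroblast markers, mostly COL1A1, was 49.1 to 66.5 FPKM in DMSO, 43.9 to 61.5 at 0.3 μM and 43.0 to 48.5 at 1 μM. Of the 3 that were tested, COL1A1 (-0.41) and PDGFRB (-0.48) fell, while LUM was at 0.33 and did not pass (edgeR adjusted p = 0.11). The summed level of the 7 blood and endothelial markers, mostly CD14 and VWF, was 0.567 to 1.09 in DMSO, 0.724 to 0.876 at 0.3 μM and 1.26 to 1.37 at 1 μM. CD14 rose (1.07, edgeR adjusted p = 0.0484), while VWF, the only other one tested, was at -0.4 and did not pass (edgeR adjusted p = 0.252). The summed epithelial markers (312.0 to 343.0 FPKM over all samples) and thyroid markers (22.3 to 28.0) overlapped between the groups.

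**Figure D1:**
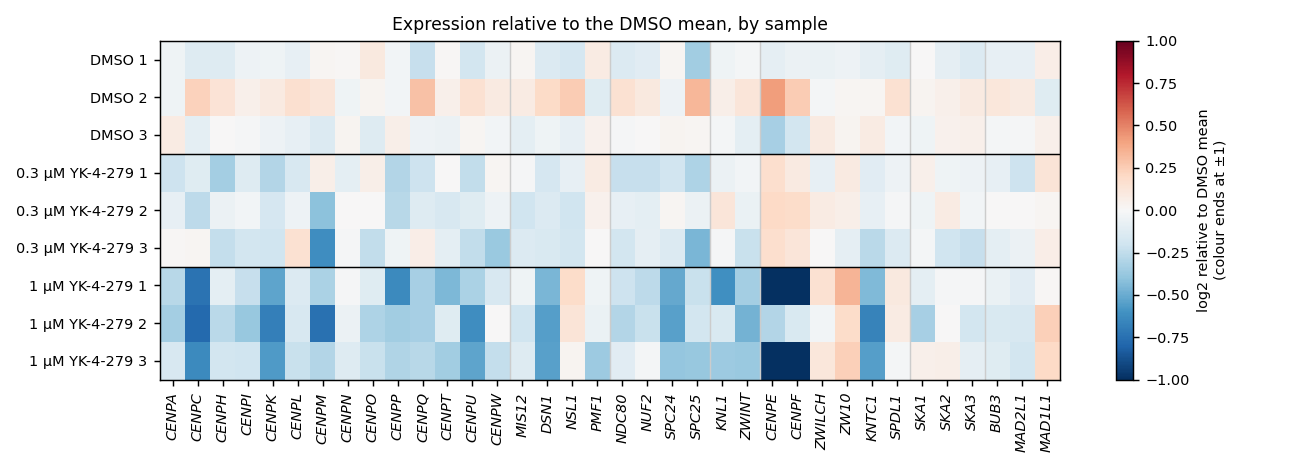
Log2 expression of each gene relative to its mean in DMSO, with 1 row per sample and 1 column per gene, grouped by complex, and with colours that end at ±1. The rows at 1 μM are mostly blue, with medians of -0.21, -0.21 and -0.22, and DMSO replicate 2 is the most red of the DMSO rows with a median of 0.09.

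The promoters of the 4 genes that fell by over 1.5-fold are shown with those of NDC80 and SKA3. NDC80 and SKA3 are examples of genes that did not pass the test, and NDC80 was close to passing (edgeR adjusted p = 0.0528). RefSeq promoter sequences (GRCh38.p14, 250 bases before to 50 after the gene start) were found for 30 of the 36 genes, in 35 windows, and those of CENPH, CENPL, CENPM, KNL1, KNTC1 and BUB3 were not analysed here. The motifs searched on both strands were TTTGAA, the cell cycle homology region (CHR) of genes active in late cell cycle phases, CCAAT, the CCAAT box bound by NF-Y, CCGGAA, a core of ETS sites, and TTCCCGC or TTGGCGC for E2F. Read on the other strand, an E2F match (GCGCCAA) and a CCAAT box can share bases. Each line runs 5′ to 3′ on the gene's strand and holds the 250 bases before the start and the first 30 bases from it, with matches to the motifs in capitals. The stretches were chr4:67545474-67545753 (minus strand) for CENPC, chr5:65563139-65563418 (minus) for CENPK and chr4:103198314-103198593 (minus) for CENPE. They were chr1:214602945-214603224 (plus) for CENPF, chr18:2571307-2571586 (plus) for NDC80 and chr13:21176523-21176802 (minus) for SKA3.
CENPC: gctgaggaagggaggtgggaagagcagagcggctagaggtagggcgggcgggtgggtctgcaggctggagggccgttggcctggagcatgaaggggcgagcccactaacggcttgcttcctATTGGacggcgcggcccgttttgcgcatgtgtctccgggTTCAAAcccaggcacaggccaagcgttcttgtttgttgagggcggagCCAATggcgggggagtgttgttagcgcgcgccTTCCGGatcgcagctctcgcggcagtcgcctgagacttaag
CENPK: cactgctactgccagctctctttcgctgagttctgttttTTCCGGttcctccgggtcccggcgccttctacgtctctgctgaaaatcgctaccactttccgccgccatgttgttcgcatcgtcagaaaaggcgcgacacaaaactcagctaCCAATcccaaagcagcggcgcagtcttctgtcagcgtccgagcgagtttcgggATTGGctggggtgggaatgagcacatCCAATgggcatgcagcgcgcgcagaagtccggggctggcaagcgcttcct
CENPE: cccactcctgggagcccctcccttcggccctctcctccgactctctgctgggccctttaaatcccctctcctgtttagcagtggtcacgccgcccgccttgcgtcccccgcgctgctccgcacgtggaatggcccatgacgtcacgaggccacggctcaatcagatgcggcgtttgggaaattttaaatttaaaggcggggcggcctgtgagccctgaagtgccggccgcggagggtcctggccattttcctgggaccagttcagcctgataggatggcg
CENPF: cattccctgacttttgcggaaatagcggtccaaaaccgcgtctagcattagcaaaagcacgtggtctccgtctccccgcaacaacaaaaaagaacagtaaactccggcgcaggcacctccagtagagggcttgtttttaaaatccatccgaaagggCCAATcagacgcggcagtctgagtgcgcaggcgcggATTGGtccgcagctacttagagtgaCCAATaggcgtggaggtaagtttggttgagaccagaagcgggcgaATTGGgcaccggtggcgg
NDC80: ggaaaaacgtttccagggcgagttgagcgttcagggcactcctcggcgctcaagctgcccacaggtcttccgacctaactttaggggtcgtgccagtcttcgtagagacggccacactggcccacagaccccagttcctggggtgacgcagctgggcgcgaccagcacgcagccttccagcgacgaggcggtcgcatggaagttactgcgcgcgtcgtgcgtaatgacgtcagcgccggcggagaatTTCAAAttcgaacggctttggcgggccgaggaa
SKA3: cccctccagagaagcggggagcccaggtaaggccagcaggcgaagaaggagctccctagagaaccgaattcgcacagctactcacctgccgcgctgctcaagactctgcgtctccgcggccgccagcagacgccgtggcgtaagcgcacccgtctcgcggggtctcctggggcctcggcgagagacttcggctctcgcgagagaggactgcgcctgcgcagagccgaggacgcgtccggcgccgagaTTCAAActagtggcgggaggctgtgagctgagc

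With the start base as position 0, the ETS core began at -11 in the CENPC window and at -211 in the CENPK window, and neither the CENPE nor the CENPF window held one. The CENPE window held none of the 4 motifs. CENPF had CCAAT boxes at -94, -58, -33 and 12, and its CHR match at 40 lay past the bases printed. The CHR match began at -90 in CENPC and at -3 in NDC80 and SKA3, and the CENPK window held none. Over the 35 windows, CHR was present in 42.9%, against 10.4% of the windows of protein-coding genes tested and 15.2% of all 35116 windows. CCAAT was present in 60.0% of the member windows against 34.2% and 34.6%, E2F in 31.4% against 13.4% and 9.23%, and the ETS core in 28.6% against 26.2% and 17.2%. Counted per gene, the ETS core was found in 3 of 12 genes called lower and 7 of 18 that were not, and CHR in 4 of 12 and 10 of 18. These matches are letters in a window and were not tested as binding sites.

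The inner network held the most genes called lower. CENPA and all 13 network members had a log2 fold change below 0 at 1 μM, between -0.77 for CENPC and -0.09 for CENPN, with a median of -0.31, and 8 of these 14 genes were called. CENPA, which replaces histone H3 in centromeric nucleosomes, was among the most abundant per length in DMSO, at 36.5 FPKM ± 1.72 (SD, n = 3). Its counts were 1217, 1280 and 1302 in DMSO, 1107, 1236 and 1271 at 0.3 μM, and 1088, 985 and 1083 at 1 μM. The samples at 1 μM lay below every DMSO sample, and CENPA fell by 0.29 on the log2 scale (SE 0.07, edgeR adjusted p = 0.00982). This call was lost when DMSO replicate 3 or 1 μM replicate 2 was left out. Reads of SLC35F6, which overlaps CENPA on the same strand and had a log2 fold change of 0.28, may not be fully separable from it.

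CENPC (ENSG00000145241, chr4:67468748-67545606, minus strand) links CENPA nucleosomes to the outer kinetochore. It was counted 588, 800 and 591 times in DMSO, 610, 561 and 658 times at 0.3 μM, and 406, 371 and 399 times at 1 μM. DMSO and 0.3 μM overlapped, while 1 μM lay apart below both. The log2 fold change at 1 μM was -0.77 (SE 0.10, edgeR adjusted p = 0.000254), so that CENPC fell by 41.2%, and against 0.3 μM it was -0.62 (edgeR adjusted p = 0.000488). CENPC was the scarcest of the 4 genes past 1.5-fold, at 4.36 FPKM ± 0.659 (SD, n = 3) in DMSO and 2.60 ± 0.128 at 1 μM.

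CENPK, CENPH, CENPI and CENPM form 1 complex of the network. CENPK (ENSG00000123219, chr5:65517766-65563171, minus strand) was counted 1014, 1176 and 999 times in DMSO, 882, 975 and 917 times at 0.3 μM, and 763, 650 and 680 times at 1 μM. The 3 groups did not overlap and CENPK decreased in order of dose, by a log2 of 0.63 at 1 μM (SE 0.07, edgeR adjusted p = 7.9e-05). At 0.3 μM its log2 fold change was -0.23 (edgeR adjusted p = 0.995). CENPI had counts of 848, 961 and 863 in DMSO, 826, 901 and 782 at 0.3 μM and 793, 670 and 739 at 1 μM, and it fell by a log2 of 0.30 (SE 0.07, edgeR adjusted p = 0.0121). CENPM was less abundant, with 191, 217 and 169 in DMSO, 203, 147 and 121 at 0.3 μM and 158, 109 and 148 at 1 μM. Its log2 fold change was -0.49 (SE 0.14, edgeR adjusted p = 0.0295) and the call was lost in 7 of 13 alternatives. CENPI lost its call without 1 μM replicate 2. CENPH, with -0.22 (edgeR adjusted p = 0.0629), did not pass.

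CENPU, CENPP, CENPO and CENPQ belong to a second complex, in which CENPU docks the kinase PLK1. For CENPU the counts were 394, 527 and 450 in DMSO, 387, 432 and 378 at 0.3 μM, and 377, 287 and 299 at 1 μM. All samples at 1 μM lay below the other 6, though the highest of them was within 1 count of a sample at 0.3 μM, and the log2 fold change was -0.53 (SE 0.11, edgeR adjusted p = 0.00433). CENPP was the least abundant member, at 0.762 FPKM ± 0.0291 (SD, n = 3) in DMSO. It was counted 126, 133 and 133 times in DMSO, 107, 110 and 126 times at 0.3 μM, and 84, 99 and 100 times at 1 μM. Its log2 fold change was -0.49 (SE 0.15, edgeR adjusted p = 0.0392), and the call was lost in 9 of 13 alternatives while the change stayed between -0.55 and -0.37. CENPO (-0.25) and CENPQ (-0.37) did not pass.

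CENPT, which extends from centromeric DNA to the Ndc80 complex, had counts of 603, 652 and 568 in DMSO, 616, 560 and 562 at 0.3 μM, and 463, 548 and 455 at 1 μM. It fell by a log2 of 0.33 (SE 0.09, edgeR adjusted p = 0.0234), and the call was lost without DMSO replicate 3, 1 μM replicate 1 or 1 μM replicate 3. Its histone-fold partner CENPW, with the highest DMSO level of the inner network at 37.5 FPKM ± 2.36 (SD, n = 3), had a log2 fold change of -0.16 and did not pass. CENPL (-0.21) and CENPN (-0.09), which contact the CENPA nucleosome together, did not pass either.

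**Figure D2:**
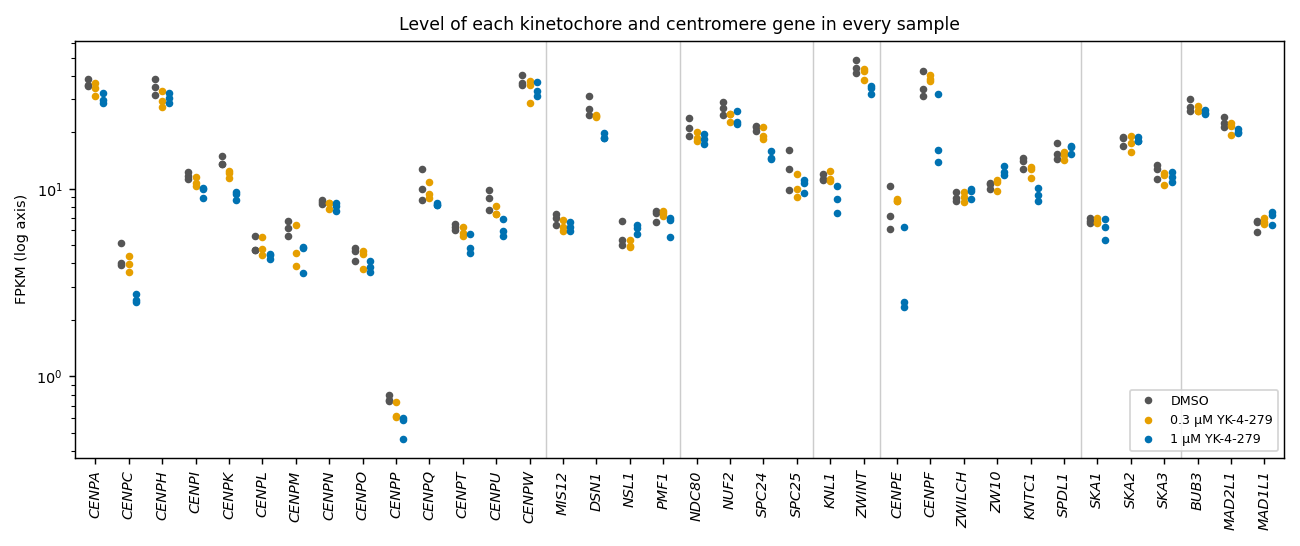
FPKM of each gene in every sample on a log axis, with points coloured by group and genes ordered by complex. In DMSO the means ran from 0.762 for CENPP to 44.8 for ZWINT, and the samples of the 3 groups overlap for most genes.

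Within the outer kinetochore complexes, 4 of 10 genes were called, 1 each of the Mis12 and Ndc80 complexes and both of the Knl1 complex. The Mis12 complex anchors the outer kinetochore to the inner one. Its subunit DSN1 was counted 1171, 1552 and 1238 times in DMSO, 1185, 1227 and 1176 times at 0.3 μM, and 996, 881 and 863 times at 1 μM. The samples at 1 μM lay below all others, and DSN1 fell by a log2 of 0.55 (SE 0.08, edgeR adjusted p = 0.00052). NSL1, PMF1 and MIS12 had log2 fold changes of 0.08, -0.18 and -0.16 and did not pass.

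The Ndc80 complex makes the main contact with microtubules. SPC24 anchors it and had counts of 1043, 1052 and 1041 in DMSO, 929, 1093 and 944 at 0.3 μM, and 764, 706 and 764 at 1 μM. DMSO varied little and 1 μM lay below every other sample, with a log2 fold change of -0.51 (SE 0.07, edgeR adjusted p = 0.000263). NDC80 (-0.23, edgeR adjusted p = 0.0528), NUF2 (-0.20) and SPC25 (-0.32) did not pass. NDC80, NUF2 and SPC25 were all called without DMSO replicate 1.

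The Knl1 complex, the scaffold for checkpoint proteins, was lower in both members. KNL1 had 1975, 2228 and 1971 counts in DMSO, 2007, 2314 and 2031 at 0.3 μM, and 1402, 1830 and 1527 at 1 μM. Its log2 fold change was -0.39 (SE 0.09, edgeR adjusted p = 0.0105), with 0.3 μM near DMSO at 0.01. ZWINT, which joins KNL1 to the corona, was the most abundant member per length at 44.8 FPKM ± 3.62 (SD, n = 3) in DMSO. It had 1812, 2102 and 1689 counts in DMSO, 1847, 1833 and 1587 at 0.3 μM and 1533, 1322 and 1380 at 1 μM, and fell by a log2 of 0.42 (SE 0.07, edgeR adjusted p = 0.000997).

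**Figure D3:**
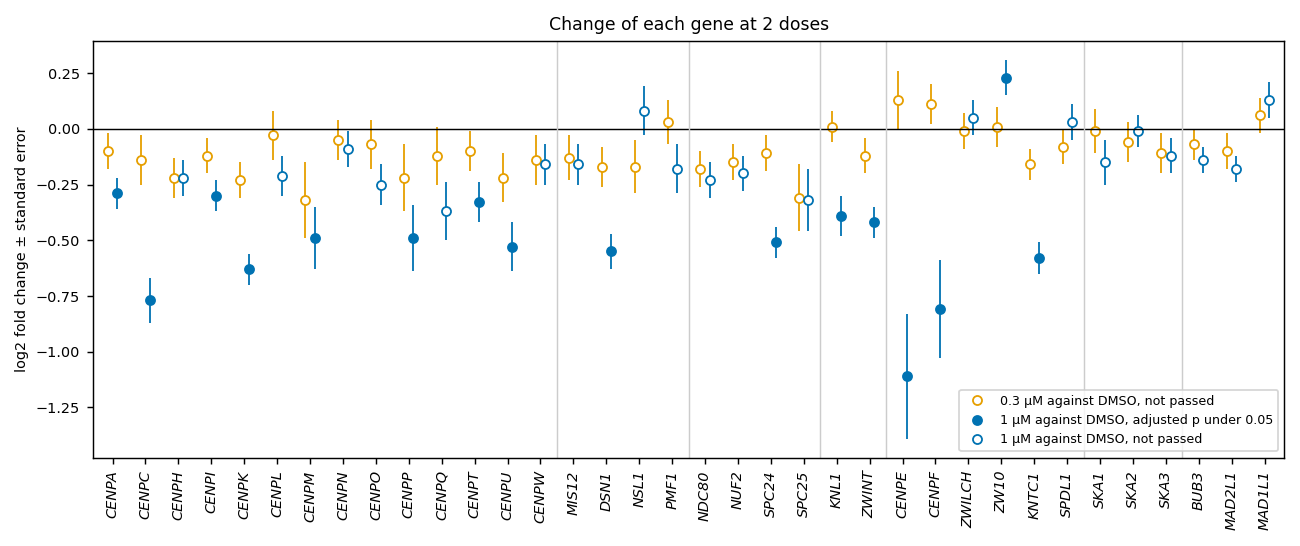
Log2 fold change of each gene against DMSO at 0.3 μM and at 1 μM, with bars for the standard error of edgeR's fit, and filled points for an adjusted p under 0.05. Of the points at 1 μM, 16 are filled, 15 of them below 0 with CENPE lowest at -1.11, and none of the points at 0.3 μM is filled.

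In the corona, CENPE and CENPF had the lowest log2 fold changes of the 36 genes with all samples included, and in both 1 of the samples at 1 μM stood apart. Without 1 μM replicate 1 or 3, CENPF (-0.59 and -0.66) was no longer below CENPC (-0.75 and -0.80). CENPE (ENSG00000138778, chr4:103105806-103198409, minus strand) is a kinesin that moves chromosomes to the spindle equator. It was counted 1176, 1782 and 985 times in DMSO, 1457, 1514 and 1423 times at 0.3 μM, and 408, 1024 and 400 times at 1 μM. CENPF (ENSG00000117724, chr1:214603195-214664588, plus strand) is a large coiled-coil protein that binds microtubules. It was counted 6849, 8962 and 6219 times in DMSO, 7838, 8523 and 7837 times at 0.3 μM, and 2994, 6438 and 3174 times at 1 μM. In both genes replicate 2 at 1 μM exceeded the lowest DMSO sample, while replicates 1 and 3 lay far below it. Replicate 2 was also the highest sample of both genes in DMSO and at 0.3 μM.

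CENPE had a log2 fold change of -1.11 (SE 0.28, edgeR adjusted p = 0.0149) and CENPF of -0.81 (SE 0.22, edgeR adjusted p = 0.0201). With DESeq2 the SE were larger, at 0.51 and 0.42, and neither gene passed. Their DESeq2 adjusted p of 0.143 and 0.204 were the highest over the 13 alternatives. The lowest edgeR adjusted p, 1.13e-37 for CENPE and 1.32e-35 for CENPF, came with a minimum count of 1. That fit dropped the filter on low counts, and values this low do not measure the spread between overlapping groups of 3 samples. Without replicate 2 at 1 μM the log2 fold changes were -1.72 (SE 0.18) and -1.27 (SE 0.11). With the replicate block, and no sample of the 2 groups left out, they were -1.21 and -0.9. Without replicate 1 or 3 the calls were lost, at -0.86 and -0.89 for CENPE and -0.59 and -0.66 for CENPF. Both genes are long, with deposited lengths of 9444 and 11690 bases. The median over 2247 genes of at least 9000 bases lay between -0.01 and 0.03 in every sample, and with an offset for gene length CENPE was -1.09 and CENPF -0.78. Both measures describe an average trend with length and do not bear on single long genes in 1 sample. KIF20B, a mitotic kinesin named after its values were seen and no member, also had its highest count at 1 μM in replicate 2, with 1218, 1653 and 1055 counts in DMSO and 450, 1195 and 458 at 1 μM. Why replicate 2 differed was not tested.

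**Figure D4:**
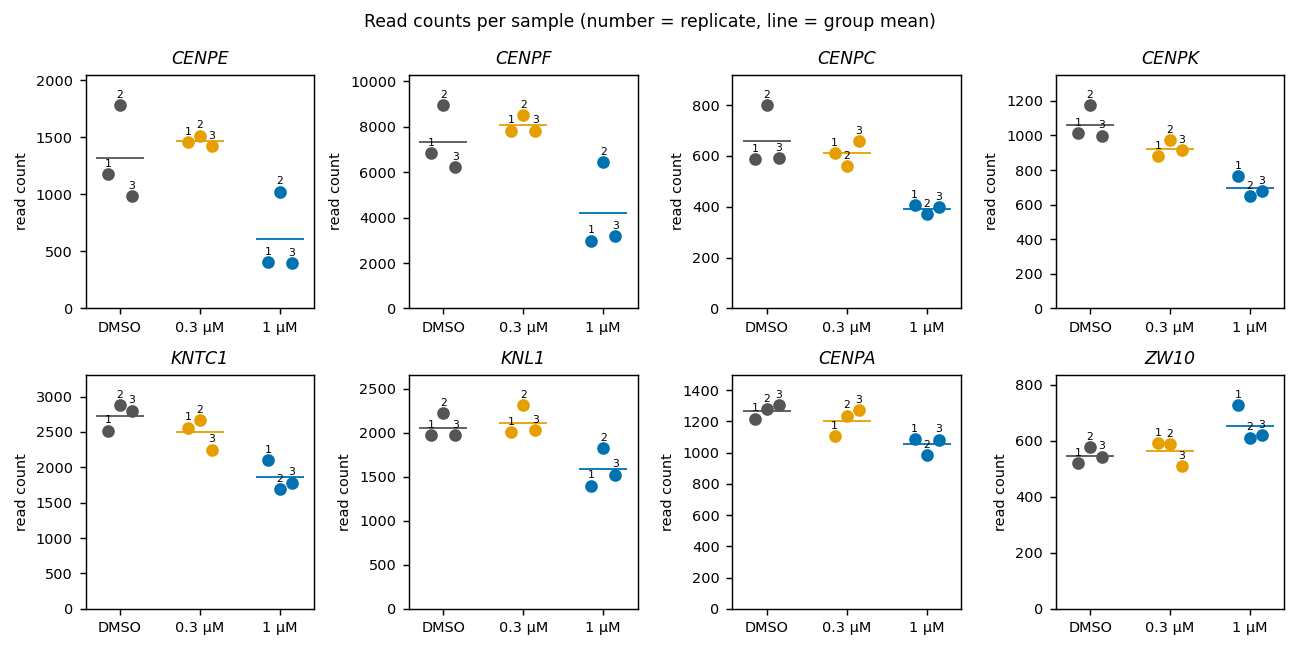
Read counts of 8 genes by group, with 1 point per sample numbered by replicate and a line for the group mean. For CENPE and CENPF replicate 2 at 1 μM (1024 and 6438) lies far above replicates 1 and 3, whereas for CENPC and CENPK the 3 samples at 1 μM lie together below all others.

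KNTC1, ZW10 and ZWILCH form the RZZ complex, which recruits dynein and checkpoint proteins. KNTC1 was counted 2519, 2876 and 2801 times in DMSO, 2561, 2668 and 2250 times at 0.3 μM, and 2100, 1691 and 1783 times at 1 μM. It fell by 33.0% at 1 μM, a log2 fold change of -0.58 (SE 0.07, edgeR adjusted p = 9.4e-05). ZW10, which also acts in membrane traffic, had 519, 578 and 543 counts in DMSO, 592, 589 and 509 at 0.3 μM, and 726, 611 and 621 at 1 μM. Its log2 fold change was 0.23 (SE 0.08, edgeR adjusted p = 0.0484), and the call was lost in 10 of 13 alternatives. ZWILCH (0.05) and the dynein adaptor SPDL1 (0.03) did not pass. ZWILCH overlaps RPL4, a ribosomal protein gene with a mean of 42900 counts, on the other strand.

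None of the Ska complex and none of the checkpoint binding partners passed at 1 μM. SKA1, SKA2 and SKA3 had log2 fold changes of -0.15, -0.01 and -0.12 with SE of 0.10, 0.07 and 0.08. BUB3, which carries BUB1 to KNL1, was at -0.14 (edgeR adjusted p = 0.125), MAD2L1, the inhibitor of anaphase onset, at -0.18 (0.0565) and its partner MAD1L1 at 0.13 (0.31). For MAD2L1 the levels at 1 μM (20.7, 20.0 and 19.7 FPKM) lay just below those in DMSO (21.2, 24.1 and 22.3). MAD2L1 was called with gene length offsets (edgeR adjusted p = 0.0444) and without DMSO replicate 1.

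The level of 1 subunit relative to another of its complex was also compared within each sample, with CENPE and CENPF paired only as corona proteins. These were ratios of FPKM for 9 pairs that were chosen after the values were seen and were not tested. DSN1 to NSL1 was 4.94, 4.62 and 4.98 in DMSO, 4.56, 5.05 and 4.95 at 0.3 μM and 3.10, 3.01 and 3.26 at 1 μM. KNTC1 to ZW10 was 1.28, 1.31 and 1.36 in DMSO, 1.14, 1.20 and 1.17 at 0.3 μM and 0.76, 0.73 and 0.76 at 1 μM. In both pairs the samples at 1 μM lay below all others. CENPK to CENPH averaged 0.40, 0.40 and 0.30 in the 3 groups and SPC24 to NDC80 0.99, 1.03 and 0.81, again with all samples at 1 μM below those in DMSO. The ratio of CENPT to CENPW, 0.17 and 0.15 on average, did not overlap either, while the ratios of KNL1 to ZWINT, CENPU to CENPQ, CENPE to CENPF and CENPN to CENPL overlapped between DMSO and 1 μM.

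**Figure D5:**
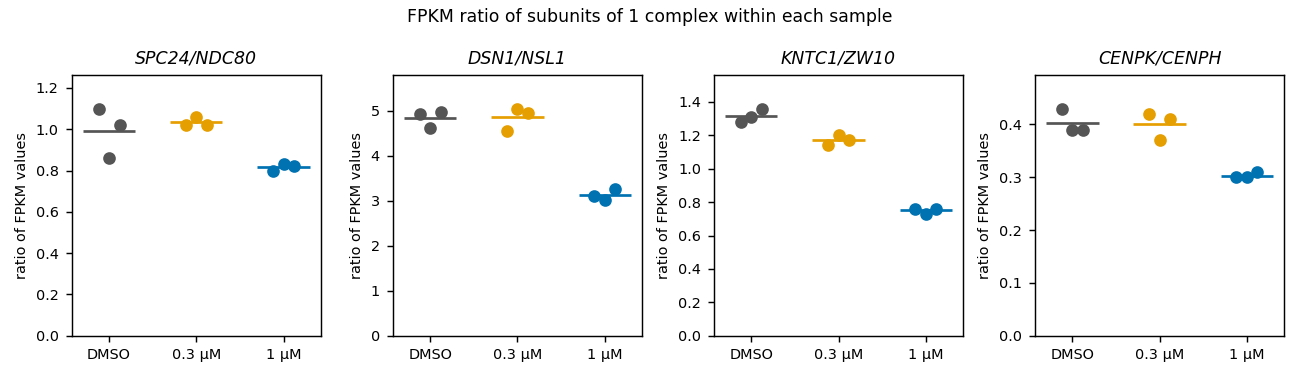
Ratio of FPKM values of 2 subunits of a complex in each sample, for 4 pairs chosen after the values were seen, with a line for the group mean. In each pair the 3 points at 1 μM lie below all points in DMSO, for example from 3.01 to 3.26 against 4.62 to 4.98 for DSN1 to NSL1.

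At 0.3 μM of YK-4-279, 0 of the 36 genes were called lower and 0 higher with edgeR, and DESeq2 also called 0. Over all 15762 genes tested 0.0% were called in either direction. At an unadjusted p under 0.05, CENPH, CENPK and KNTC1 were lower, 8.33% of the group, and none was higher, beside 2.13% lower and 1.64% higher over all genes tested. In CENPK, CENPP and DSN1 all samples at 0.3 μM lay below all DMSO samples, and in none did all lie above, where 4.23% of all genes tested did so in each direction. The median log2 fold change was -0.11 over the 36 genes and 0.00 over all genes, and it was -0.05 over the 36 genes without DMSO replicate 2. The lowest value was -0.32 (SE 0.17) for CENPM and the highest 0.13 (SE 0.13) for CENPE. A change that missed the test at this dose is not shown to be absent.

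Between the doses, 9 of the 36 genes were lower at 1 μM than at 0.3 μM and 0 were higher, where 6.75% and 5.85% of 15583 genes tested were called. The 9 genes were CENPC, CENPK, DSN1, SPC24, KNL1, ZWINT, CENPE, CENPF and KNTC1. At an unadjusted p under 0.05 another 4 genes were lower and 2, NSL1 and ZW10, were higher, and DESeq2 called 7 lower and 0 higher. In 14 genes all samples at 1 μM lay below all samples at 0.3 μM, and in NSL1 and ZW10 all lay above, beside 14.8% and 17.0% of all genes. CENPE was at -1.24 (SE 0.23, edgeR adjusted p = 0.00224) and CENPF at -0.91 (SE 0.19, edgeR adjusted p = 0.00466). Neither passed with DESeq2 (adjusted p = 0.0629 and 0.123, the highest over their alternatives). The lowest edgeR adjusted p, 3.39e-46 and 4.87e-45, again came from the fit without the filter on low counts. KNL1 was at -0.39 and lost its call without 1 μM replicate 1 or 0.3 μM replicate 2. ZWINT was at -0.29 and lost it without 1 μM replicate 2 or 0.3 μM replicate 2.

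Other genes of the pathway, in lists that hold none of the 36, were described by their counts at 1 μM, beside 9.95% lower and 7.67% higher over all genes. Of 16 kinases and regulators of the kinetochore and checkpoint, 4 fell and 1 rose, with AURKB at -0.54, its partner INCENP at -0.44 and the checkpoint kinase TTK at -0.43, while MAD2L1BP was at 0.36. Of 14 genes for centromere loading and other centromere proteins, 3 fell, among them ITGB3BP (also called CENPR, -0.60) and HJURP, the chaperone that deposits CENPA (-0.20). Of 14 microtubule and dynein partners, CKAP5 fell (-0.27) and MAPRE1 (0.30), BICD2 (0.21) and DYNC1H1 (0.17) rose. Phase markers moved in the same comparison, and their part in the results on the 36 genes was not tested. Of 26 S phase genes 20 fell and none rose, with a median of -0.29, and of 24 G2/M phase genes 12 fell and 3 rose, with a median of -0.17. In the 3 samples at 1 μM the median of the S phase list relative to DMSO was -0.19, -0.27 and -0.30, and that of the G2/M list -0.19, -0.14 and -0.10.

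Of the 16 genes called at 1 μM, 8 were called in all 13 alternatives that kept the adjusted threshold, which were other tools, normalisations, filters and blocks and the removal of each sample. They were CENPC, CENPK, CENPU, DSN1, SPC24, KNL1, ZWINT and KNTC1. A further 14 of the 36 genes were not called in any of them. Another 6, CENPH, CENPQ, NDC80, NUF2, SPC25 and MAD2L1, did not pass in the main fit but were called in at least 1 alternative. In DMSO the 15 genes called lower had a median of 11.8 FPKM and a median gene length of 4321 bases, and the other 21 a median of 10.5 FPKM and 3362 bases. Overlapping genes are a limit for 2 members on the same strand (CENPA and CENPN) and for 11 on the other strand, among them CENPP, CENPT, CENPU and SPC24 of the genes called.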

How the data were processed

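RNA-seq of 9 KHM-5M samples was used, 3 per group. The labels do not say whether replicates came from separate cultures, so p-values cover no more than the spread between these samples. The edgeR fit also draws each gene's spread towards that of other genes. The study's methods mention 2 biological replicates per condition. Reads were trimmed and quality-filtered by the authors, mapped to GRCh38 with Hisat2 and deposited as raw counts per gene. The methods name HTseq for counting, and the submitters' processing notes name HISAT2 2.0.5, featureCounts 1.5.0-p3 and DESeq2 1.20.0. The use of strand in counting is not given in the sources used here. The authors also deposited FPKM, which was used for levels between genes, and their own fold changes and p-values, which were not used.

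Counts were tested with edgeR 4.0.16 in R 4.3.3 (TMM, filterByExpr with a minimum count of 10, glmQLFit and glmQLFTest on the 2 groups compared), with Benjamini-Hochberg adjustment over all genes tested. The SE is the absolute log2 fold change divided by the square root of F. Genes were called at an adjusted p under 0.05, and 1.5-fold is 0.587 on the log2 scale. Values relative to DMSO are log2 of TMM-scaled CPM plus 0.5. The detection floor, taken as 3 counts, was 0.164 to 0.177 CPM and covers counting error only. The steps were tested on simulated counts with the same dispersion for every gene, which does not cover genes with a wide spread such as CENPE. Alternatives were DESeq2 1.42.0, RLE size factors, a minimum count of 1, all 9 samples in 1 fit, a replicate block, gene length offsets (lowess span 0.3), each sample left out and the unadjusted p. All 36 members could be named; those called were given per sample, and of the pathway lists at most 4 called genes with the largest change, with KIF20B added later. A few single-gene values are not reported here. The members and lists were chosen with earlier results of these data known. Tables and figures used Python 3.11.15, pandas 2.3.3, numpy 2.4.6 and matplotlib 3.10.9.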

Additional observations from a re-analysis of the deposited data

How the results depend on the processing

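At 1 μM against DMSO the count of 16 genes called lay between 11 and 19 with a sample left out and was 11 with DESeq2, and at an unadjusted p under 0.05 it was 25. At 0.3 μM it was 0 in every alternative except the unadjusted p, with 3, and between the doses the unadjusted p gave 15 in place of 9. The count of 4 genes past 1.5-fold was 2 with DESeq2, and between 2 (without 1 μM replicate 3) and 7 (without DMSO replicate 1) with a sample left out. Deviations from the group means of same-numbered samples correlated weakly, at most 0.0816. Between 0.3 μM and DMSO these correlations (0.0816, 0.0652 and 0.0199) all exceeded those of samples with different numbers (at most 0.00545). In the other comparisons the 2 kinds overlapped, so a weak pairing by replicate number is not excluded. With the replicate block 13, 0 and 9 genes were called in the 3 comparisons. Signs turned in 3 uncalled genes close to 0. SKA2 was 0.00 with DESeq2, 0.02 with a minimum count of 1 and -0.06 to 0.02 with a sample left out. Without DMSO replicate 1, NSL1 was 0.00 (range 0.00 to 0.23) and SPDL1 -0.03 (range -0.03 to 0.12). Of the single-gene values at 1 μM, 414 kept their direction and side of the threshold, 38 lost the call, 9 gained it and 7 turned in sign. The cause of these changes was not tested.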
